A study of Mus musculus with 21 samples.

Results

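The rows described here are the mature microRNAs of the miR-199 and miR-214 genes, in whole kidney of mice after folic acid. They were chosen by name, as miR-199a-5p, miR-199a-3p, miR-199b-5p, miR-199b-3p, miR-214-3p and miR-214-5p, and all 6 were found among the 1125 rows of the deposited table. In all 21 libraries the 3p rows of miR-199a and miR-199b had equal values, and they are counted once, as miR-199-3p, which leaves 5 distinct members. All 5 passed the filter on low values.

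The libraries come from kidneys of male BALB/c mice aged 12 weeks, collected on day 0 and at 1, 2, 3, 7, 14 or 28 days after folic acid at 250 mg/kg, given in sodium bicarbonate. A high dose of folic acid injures renal tubules and is used as a model of acute kidney injury that passes into fibrosis. There are 3 libraries a day, made from total RNA with a small RNA kit. Whether mice of day 0 received an injection is not stated in the labels, and none of the later days has mice without folic acid here, so folic acid, vehicle, age and day of collection cannot be told apart. Nor do they say that the 3 libraries of a day are separate animals, and the p-values reflect only how far libraries of a day differ. Markers of the labelled tissue were present: the tubular miR-192-5p and miR-30a-5p averaged 120885 and 80400 CPM (counts per 1000000 reads assigned to miRNAs) at day 0.

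A microRNA is cut from a hairpin precursor, and either arm of the hairpin (5p or 3p) can load onto Argonaute and repress transcripts that pair with its seed, bases 2 to 8. In the mouse, miR-199a and miR-214 are processed from a shared noncoding transcript, Dnm3os, which runs opposite to the gene of the dynamin Dnm3 and is activated in embryonic mesenchyme by the transcription factor Twist1. Both miRNAs are known from fibroblasts and other mesenchymal cells. In mice with an obstructed ureter, loss or blockade of miR-214 is reported to lessen renal fibrosis, and miR-199a-5p is reported to lower caveolin-1 in lung fibroblasts.

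The mature sequences are shown because they set which members can be told apart. They are from RefSeq on GRCm38.p6, 5′ to 3′, with the seed in capitals, and 5 of the 6 names had an entry (miR-199b-5p had none).
miR-199a-5p: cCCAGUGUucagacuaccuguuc
miR-199a-3p: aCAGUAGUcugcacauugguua
miR-199b-3p: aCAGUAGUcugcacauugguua
miR-214-3p: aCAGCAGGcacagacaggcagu
miR-214-5p: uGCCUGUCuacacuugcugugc
The miR-199a-3p and miR-199b-3p sequences are identical over their 22 bases, so their reads cannot be assigned to a locus. The 5 sequences hold 4 different seeds. The only other RefSeq mouse miRNA with a member's seed was miR-761, which shares CAGCAGG with miR-214-3p and had no read in any of the 21 libraries, a count that allows at most 1.04 CPM in the shallowest library.

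The hairpins show that the members come from 4 places in the genome. The arms with a RefSeq entry are in capitals.
Mir199a-2: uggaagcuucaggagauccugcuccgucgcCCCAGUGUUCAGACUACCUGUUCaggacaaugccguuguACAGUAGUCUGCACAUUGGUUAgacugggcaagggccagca
Mir214: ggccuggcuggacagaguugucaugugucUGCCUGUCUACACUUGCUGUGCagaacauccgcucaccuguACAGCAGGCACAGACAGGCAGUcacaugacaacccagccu
Mir199a-1: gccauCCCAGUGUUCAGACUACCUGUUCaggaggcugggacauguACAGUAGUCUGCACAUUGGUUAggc
Mir199b: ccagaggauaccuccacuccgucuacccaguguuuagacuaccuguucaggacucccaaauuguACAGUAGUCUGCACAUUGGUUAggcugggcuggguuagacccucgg
Mir199a-2 (chr1:162217814-162217923, plus strand) and Mir214 (chr1:162223368-162223477, plus strand) lie in exons of Dnm3os and, on the opposite strand, in an intron of Dnm3. The gap between them is 5444 bases. Mir199a-1 (chr9:21496495-21496564, minus strand) lies in an intron of the dynamin gene Dnm2 and Mir199b (chr2:32318460-32318569, plus strand) in an intron of Dnm1, each on the strand opposite to its host. Reads of miR-199a-5p can therefore come from Mir199a-1 or Mir199a-2, and those of miR-199-3p from Mir199a-1, Mir199a-2 or Mir199b. The miR-214 arms come from Mir214 alone.

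**Figure D1:**
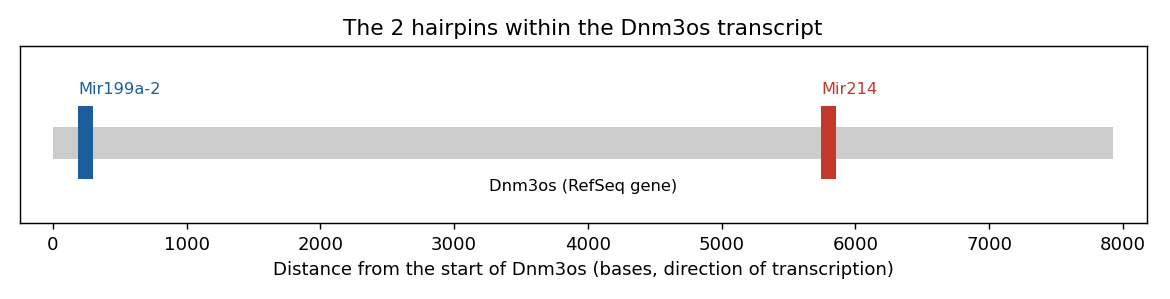
Position of the Mir199a-2 and Mir214 hairpins (coloured blocks, to scale) along the RefSeq gene Dnm3os (grey bar, 7928 bases); the x axis is the distance in bases from its start. Mir199a-2 begins 191 bases and Mir214 5745 bases into the transcript.

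The promoter of Dnm3os is shown because it is shared by Mir199a-2 and Mir214 (RefSeq, GRCm38.p6, chr1:162217373-162217672, plus strand, 250 bases before to 50 bases after the start). Capitals mark E-boxes and a CArG box.
Dnm3os: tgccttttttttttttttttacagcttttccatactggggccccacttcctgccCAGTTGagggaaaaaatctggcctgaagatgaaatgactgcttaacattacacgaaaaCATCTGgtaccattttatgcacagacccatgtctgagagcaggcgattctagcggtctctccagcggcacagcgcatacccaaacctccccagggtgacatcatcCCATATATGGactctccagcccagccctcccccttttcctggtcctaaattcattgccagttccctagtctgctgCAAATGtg
E-boxes (CANNTG, the same on both strands), the kind of site that Twist1 and related factors bind, were found 3 times, at positions -196, -138 and 42 with the start at 0. Of 32851 promoter windows of this length, 72.3% hold an E-box. The CArG box, the site of serum response factor, was looked for after the window had been read and was found at position -33. It is present in 1.63% of the windows and overlaps no E-box. A match of letters is a description and not evidence of binding.

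Depth was between 2875675 and 7110546 reads assigned to miRNAs per library. The scarcest members had at least 37 reads (miR-214-5p) and 39 reads (miR-199b-5p) in every library, miR-214-3p at least 160, miR-199a-5p at least 535 and miR-199-3p at least 4437. By a chi-square of reads per degree of freedom over miRNAs, day 14 replicate 3 was 262 or more from its day mates, against 41.4 between those 2, and day 7 replicate 1 was 226 or more from its day mates, against 46.8. Levels below are TMM-scaled CPM (scaled by the edgeR trimmed mean of M-values). Mature miRNAs are of nearly the same length (22 or 23 bases for the members with a sequence), so CPM is not divided by length.

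At day 0 miR-199-3p held 89.0% ± 1.94 of the members' summed reads (SD, n = 3). It averaged 1909 ± 239 CPM and took rank 42 among the rows of the table. miR-199a-5p followed with 163 ± 19.6 CPM, then miR-214-3p with 46.8 ± 3.33 CPM. The scarce members were miR-199b-5p with 12.6 ± 2.13 CPM and miR-214-5p with 11.2 ± 0.602 CPM. The order of the levels therefore ran from miR-199-3p down to the last 2, whose libraries overlapped (10.5 to 14.8 CPM for miR-199b-5p and 10.7 to 11.9 CPM for miR-214-5p), while the others did not overlap. Together the members took 0.204% ± 0.0309 of the summed reads of all rows at day 0, 0.385% ± 0.0240 at day 3, 0.610% ± 0.0340 at day 7, 0.675% ± 0.240 at day 14 and 0.436% ± 0.0598 at day 28. That sum over all rows counts the equal miR-199a-3p and miR-199b-3p rows separately. The day 14 share rested on replicate 3, at 0.951%, against 0.564% and 0.511% in its day mates. Without it the day 14 mean was 0.537%, below that of day 7.

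miR-214-3p, the arm of Mir214 with more reads, had the largest change of the 5 members on day 3. Its 3 libraries had 46.9, 43.4 and 50.1 CPM on day 0, 80.1, 63.5 and 59.7 CPM on day 1, 147, 121 and 147 CPM on day 2, and 272, 264 and 207 CPM on day 3. They had 255, 203 and 238 CPM on day 7, 148, 140 and 297 CPM on day 14, and 99.4, 85.7 and 120 CPM on day 28. From day 1 on, no library overlapped with day 0, and day 14 replicate 3 was 2.07 times the mean of its day mates. How many of all miRNAs separate from day 0 in this way, here and for the members below, was not counted. The day 1 change of miR-214-3p did not pass in the limma fit of all days given below (adjusted p = 0.0837). The highest mean was that of day 3, 248 ± 35.5 CPM, which is 5.30 times that of day 0.

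The opposite arm, miR-214-5p, was at a lower level on every day and had its highest mean on a later one. Its libraries had 10.7, 11.1 and 11.9 CPM on day 0, 15.3, 12.7 and 13.8 CPM on day 1, 25.4, 22.7 and 21.9 CPM on day 2, and 35.3, 34.9 and 27.3 CPM on day 3. They had 46.2, 41.5 and 36.5 CPM on day 7, 38.8, 29.7 and 51.1 CPM on day 14, and 32.2, 24.0 and 26.1 CPM on day 28. Here too no library from day 1 on overlapped with day 0, though the day 1 change did not pass in that limma fit either (adjusted p = 0.218). Its highest mean was that of day 7, 41.4 ± 4.81 CPM, with day 14 at 39.9 ± 10.8 CPM, and without day 7 replicate 1 the highest was that of day 14. The step from day 3 to day 7 passed for neither arm in limma (adjusted p = 0.899 for miR-214-3p and 0.300 for miR-214-5p). Which day is the highest is therefore not settled for either arm.

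miR-199-3p, reported to target mTOR in human liver cancer cells, passed no test against day 0 before day 3. Its libraries had 2184, 1772 and 1769 CPM on day 0, 2133, 1906 and 1657 CPM on day 1, and 2149, 1939 and 2103 CPM on day 2, so that days 1 and 2 overlapped with day 0. They had 3039, 2669 and 3090 CPM on day 3, 5016, 5245 and 5095 CPM on day 7, 5345, 4674 and 7862 CPM on day 14, and 4695, 3747 and 4551 CPM on day 28. From day 3 on, no library overlapped with day 0, and on day 28 its mean was still 2.27 times that of day 0. Its mean was highest on day 14, at rank 24 among all rows, and without day 14 replicate 3 (1.57 times its day mates) the highest mean of miR-199-3p, like that of miR-199a-5p, was that of day 7.

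On day 3 the log2 fold change of miR-199a-5p, which lowers Hif1a in rat heart cells, lay between those of miR-199-3p and miR-214-3p. miR-199a-5p was not told apart from miR-199-3p on that day in limma (adjusted p = 0.0993). Its libraries had 146, 159 and 185 CPM on day 0, 198, 174 and 200 CPM on day 1, 236, 236 and 214 CPM on day 2, and 337, 372 and 285 CPM on day 3. They had 673, 522 and 428 CPM on day 7, 535, 484 and 643 CPM on day 14, and 408, 334 and 385 CPM on day 28. From day 2 on, no library overlapped with day 0. The related miR-199b-5p had 12.5, 10.5 and 14.8 CPM on day 0, 15.0, 16.1 and 14.6 CPM on day 1, 16.0, 13.6 and 18.5 CPM on day 2, and 17.3, 25.2 and 19.9 CPM on day 3. It had 35.8, 52.8 and 23.4 CPM on day 7, 36.6, 41.8 and 45.5 CPM on day 14, and 33.2, 20.7 and 30.6 CPM on day 28. It separated from day 0 on day 3, and its day 7 libraries were the most spread of its course (coefficient of variation 39.6%). How the counting split reads between the miR-199a-5p and miR-199b-5p rows is not given in the sources used here, so their levels are uncertain to that extent. Nor is it given whether each of the equal miR-199a-3p and miR-199b-3p rows holds all of their shared reads or a part. The level of miR-199-3p, its share of the members' reads and its ratios to other members depend on this.

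**Figure D2:**
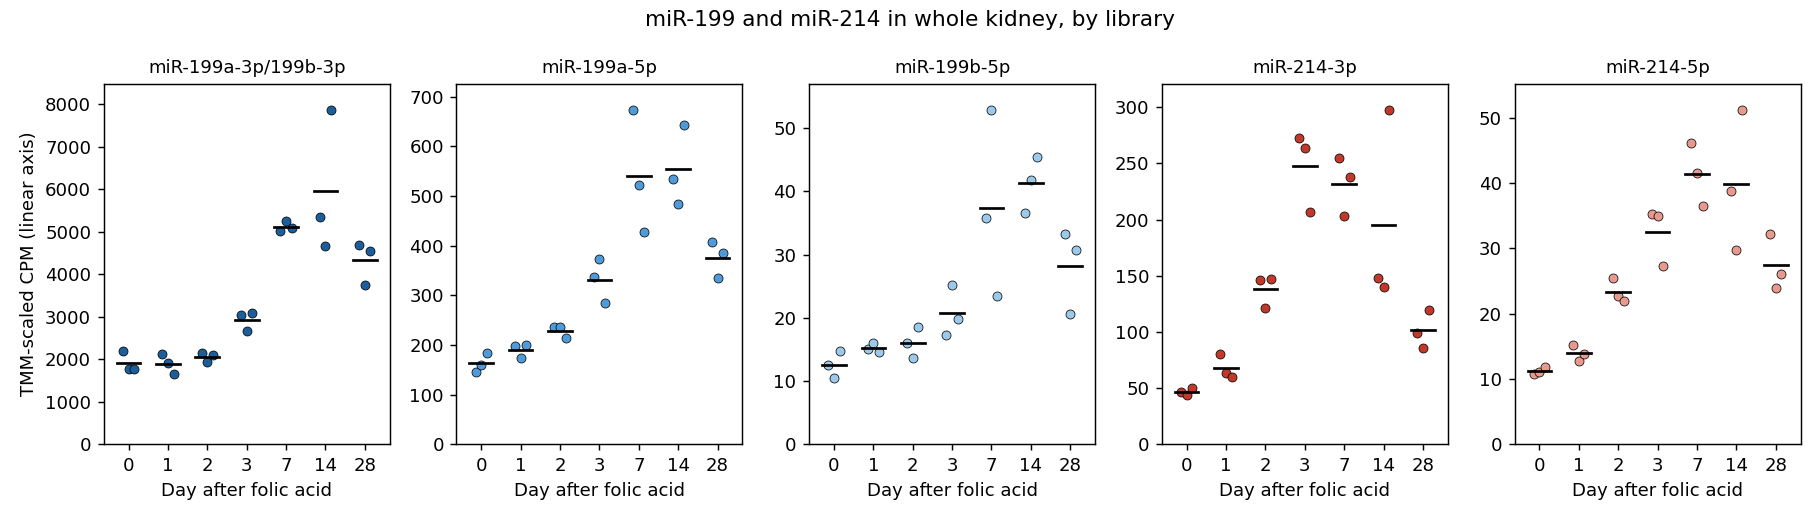
TMM-scaled CPM (y axis, linear, own scale in each panel) of the 5 distinct members in each of the 3 libraries (points) of each day (x axis, equally spaced), with the mean as a bar. miR-214-3p is highest at day 3 (248 ± 35.5 CPM), while miR-199-3p is still near its day 0 level on day 2 and highest at day 14; day 14 replicate 3 is the highest library of that day in all 5 panels.

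Tests against day 0 used limma on log2(CPM + 1) over all 431 miRNAs that passed the filter, with a call at a Benjamini-Hochberg adjusted p under 0.05. Changes below are log2 fold changes on that scale. Over the course as a whole, all 5 members changed (F test, highest adjusted p = 1.16e-05, for miR-199b-5p), where 63.1% of all tested miRNAs did. The 6 comparisons with day 0 share the same 3 day 0 libraries.

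On day 1, against day 0, 0 of 5 members passed in limma, where 14.2% of all tested miRNAs were called higher. edgeR and DESeq2 on recovered reads also called 0. At an unadjusted p under 0.05 there was 1, miR-214-3p, with a log2 fold change of 0.52 (SE 0.21, adjusted p = 0.0837), and a fit of days 0 and 1 alone called it (adjusted p = 0.0468). miR-199-3p stood at -0.01 (SE 0.15).

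On day 2, 3 of 5 members were higher, where 24.4% of all were. miR-214-3p rose by 1.54 (SE 0.21, adjusted p = 7.07e-06) and miR-214-5p by 0.99 (SE 0.17, adjusted p = 7.99e-05). miR-199a-5p rose by 0.49 (SE 0.15, adjusted p = 0.0115), and did not pass when day 0 replicate 1 was left out (adjusted p = 0.0520). miR-199-3p at 0.12 (SE 0.15, adjusted p = 0.539) and miR-199b-5p at 0.33 (SE 0.23, adjusted p = 0.255) did not pass.

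On day 3 all 5 members were higher, where 30.4% of all were, with a median of 1.01 over the members and 0.06 over all tested miRNAs. miR-214-3p was at 2.37 (SE 0.21, adjusted p = 1.39e-08), rank 6 of all fold changes that day. miR-199-3p was at 0.62 (SE 0.15, adjusted p = 0.00151), and miR-199b-5p at 0.68 (SE 0.23, adjusted p = 0.0169). Leaving out day 0 replicate 2 (0.0803) or day 3 replicate 2 (0.0919) ended the call of miR-199b-5p.

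On day 7 all 5 were higher, where 29.7% of all were, with a median of 1.70 over the members and 0.07 over all. The largest was that of miR-214-3p, at 2.28 (SE 0.21, adjusted p = 1.84e-08 in limma). miR-199-3p was at 1.43 (SE 0.15, adjusted p = 8.40e-08), miR-199a-5p at 1.70 (SE 0.15, adjusted p = 1.03e-08) and miR-214-5p at 1.79 (SE 0.17, adjusted p = 2.56e-08). miR-199b-5p was at 1.43 (SE 0.23, adjusted p = 2.80e-05). Without day 7 replicate 1, which stood apart, the 5 values ran from 1.43 for miR-199b-5p to 2.21 for miR-214-3p and all passed (highest adjusted p = 0.000202).

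On day 14 all 5 were higher, where 25.1% of all were, and their values lay close together, from 1.61 for miR-199-3p to 1.95 for miR-214-3p (median 1.71, against 0.05 over all). Without day 14 replicate 3 they ran from 1.40 for miR-199-3p to 1.64 for miR-199a-5p and all passed (highest adjusted p = 8.57e-05).

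On day 28 all 5 were still higher, where 11.1% of all were. The values were 1.21 for miR-214-5p (SE 0.17, adjusted p = 2.83e-05), 1.20 for miR-199a-5p (SE 0.15, adjusted p = 8.17e-06) and 1.18 for miR-199-3p (SE 0.15, adjusted p = 8.17e-06). miR-214-3p at 1.09 (SE 0.21, adjusted p = 0.00093) and miR-199b-5p at 1.09 (SE 0.23, adjusted p = 0.00185) completed the set. The median was 1.18 over the members and 0.03 over all tested miRNAs, and the highest of the 5 took rank 5 of all fold changes that day. In mean CPM, 27.2% of the rise of miR-214-3p from day 0 to its day 3 peak was left at day 28, while for the other 4 members between 53.7% and 59.8% of the rise to their own peak was left, a difference described here and not tested. Without day 14 replicate 3 those 4 kept between 53.7% and 75.5%, the highest being miR-199-3p, whose peak was then day 7.

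**Figure D3:**
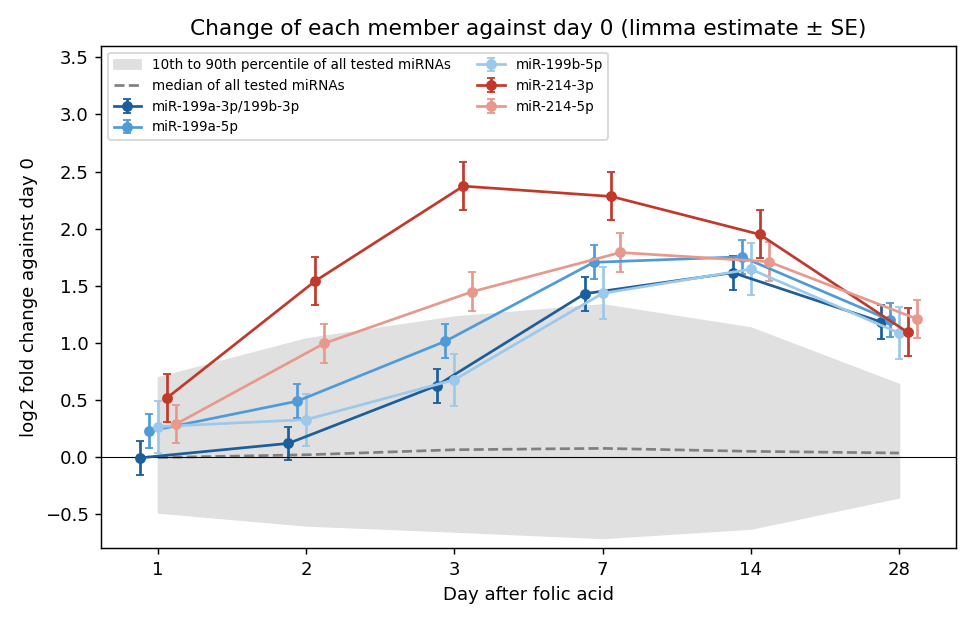
log2 fold change against day 0 (y axis, limma estimate, bars are SE) of each member on days 1 to 28 (x axis, equally spaced), with the 10th to 90th percentile (grey) and the median (dashed) of all 431 tested miRNAs. miR-214-3p (1.54) lies above the grey band and miR-214-5p (0.99) at its edge on day 2, and miR-199-3p (1.43) above it on day 7; at day 28 all 5 lie between 1.09 and 1.21, above the band.

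The course differed between the members. Within each library the reads of miR-199-3p over those of miR-214-3p were 46.6, 40.8 and 35.3 on day 0, and they averaged 28.1 ± 1.74 at day 1, 15.0 ± 0.879 at day 2, 12.1 ± 2.53 at day 3, 22.3 ± 3.16 at day 7, 32.0 ± 5.01 at day 14 and 43.0 ± 4.63 at day 28 (SD, n = 3 each). The ratio of days 1, 2, 3 and 7 did not overlap with that of day 0, and the ratio of day 28 lay from 38.1 to 47.3. This ratio does not depend on the scaling between libraries.

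Whether members changed by different amounts was tested by fitting every miRNA relative to miR-199-3p in the same library. On day 3 the change of miR-214-3p exceeded that of miR-199-3p by 1.75 (SE 0.18, adjusted p = 1.24e-07 in limma), and that of miR-214-5p did so by 0.82 (SE 0.19, adjusted p = 0.000939). These were 2 of 4 members, where 60.6% of all miRNAs differed from miR-199-3p. On day 7 the excess was 0.85 for miR-214-3p (SE 0.18, adjusted p = 0.000157) and 0.36 for miR-214-5p (SE 0.19, adjusted p = 0.0772), so 1 of 4 passed, where 88.1% of all did. Over the whole course, 98.4% of all miRNAs differed from miR-199-3p. miR-214-3p (adjusted p = 3.83e-09) and miR-214-5p (adjusted p = 0.00018) were among them. miR-199a-5p (adjusted p = 0.333) and miR-199b-5p (adjusted p = 0.786) were not. The differences of these 2 from miR-199-3p on day 7 were 0.27 (SE 0.20) and 0.00 (SE 0.25), and a p that misses the threshold does not show that they moved alike.

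The same fit relative to miR-214-3p placed its own opposite arm below it on day 3. The change of miR-214-5p was lower than that of miR-214-3p by 0.92 on the log2 scale (a difference of -0.92, SE 0.25, adjusted p = 0.000957), and all 4 other members differed, where 96.3% of all miRNAs did. On day 7 the difference of the arms was -0.49 (SE 0.25, adjusted p = 0.0647) and 3 of 4 members passed, where 94.4% of all did. Over the course 4 of 4 differed, where 98.6% did, with adjusted p = 0.00444 for the arms of Mir214. With a pseudocount of 5 CPM, which understates the scarcer arm more, the arms also differed on day 7 (-0.68, adjusted p = 0.0103), as they did without day 7 replicate 2 (-0.59, adjusted p = 0.0491). Without day 7 replicate 3 only miR-199-3p of the 4 still differed on day 7, with miR-199a-5p at adjusted p = 0.174 and miR-199b-5p at 0.116. miR-199a-5p was lost too without day 0 replicate 2 (0.0731) and day 0 replicate 3 (0.0719).

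In reads, miR-214-3p over miR-214-5p averaged 4.17 ± 0.241 at day 0, 5.94 ± 0.690 at day 2, 7.62 ± 0.0815 at day 3, 5.64 ± 0.814 at day 7 and 3.75 ± 0.766 at day 28 (SD, n = 3 each). The day 3 libraries lay from 7.56 to 7.72, above every library of the other days, none of which exceeded 6.69. Ratios between rows of miR-199 showed no such separation, though neither compares opposite arms of a single hairpin. miR-199-3p over miR-199a-5p was from 7.17 to 10.9 on day 3, against 9.58 to 15.0 on day 0. miR-199a-5p over miR-199b-5p averaged 16.2 ± 2.86 on day 3 and 13.1 ± 1.8 on day 0, and those libraries overlapped as well.

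**Figure D4:**
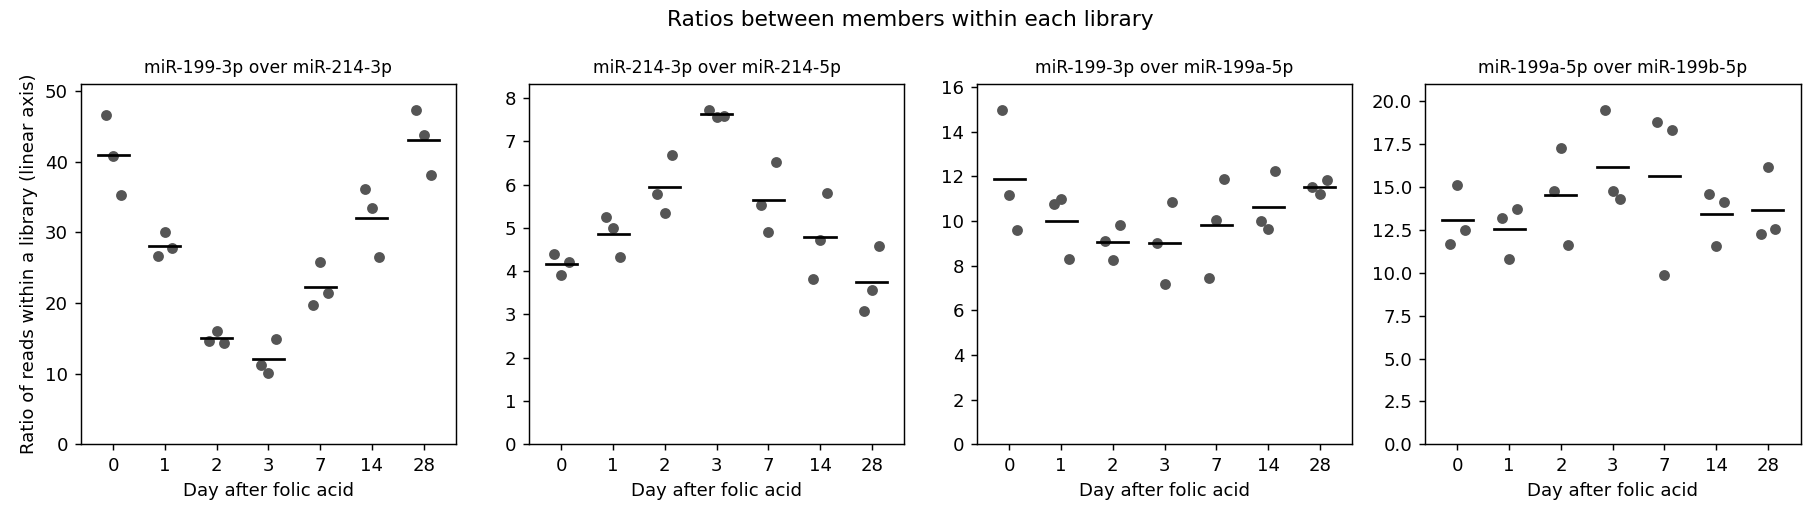
Ratios of reads between members in each library (points) by day (x axis, equally spaced), with the mean as a bar; y axes are linear from 0. miR-199-3p over miR-214-3p is 40.9 ± 5.63 at day 0, 12.1 ± 2.53 at day 3 and 43.0 ± 4.63 at day 28, and miR-214-3p over miR-214-5p is highest at day 3 (7.62 ± 0.0815).

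Several calls between neighbouring days ended when 1 library was left out. On day 2, against day 1, 2 of 5 members were higher, where 2.32% of all tested miRNAs were. These were miR-214-3p at 1.02 (adjusted p = 0.0123 in limma) and miR-214-5p at 0.71 (adjusted p = 0.0230). Leaving out replicate 2 or 3 of day 1, or replicate 1 or 3 of day 2, ended the miR-214-3p call (0.0533 to 0.0671). The miR-214-5p call ended in those cases and without day 2 replicate 2 (0.0596 to 0.143). On day 3, against day 2, 3 of 5 were higher, where 3.71% of all were: miR-214-3p at 0.83 (adjusted p = 0.0266), miR-199a-5p at 0.52 and miR-199-3p at 0.51 (both 0.0485). The miR-199-3p call was lost without any 1 of the 6 libraries (0.0942 to 0.252). Likewise miR-199a-5p was lost without each but day 3 replicate 3 (0.0943 to 0.259), and miR-214-3p without replicate 1 or 2 of day 2 or replicate 1 or 2 of day 3 (0.0641 to 0.137). With library totals or no filter none of the 3 passed in limma (lowest adjusted p 0.0568 and 0.0692), and with DESeq2 only miR-214-3p did.

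The calls at the step to day 7 were of miR-199 rows, and whether this step differed between members was not tested. On day 7, against day 3, 2 of 5 members were higher, where 1.62% of all were. miR-199-3p was at 0.81 (SE 0.15, adjusted p = 0.00312), a call kept without each of the 6 libraries. miR-199a-5p was at 0.69 (SE 0.15, adjusted p = 0.0130) and lost its call without day 3 replicate 3 (0.0999), day 7 replicate 1 (0.0788) and day 7 replicate 2 (0.0639), and in a fit of those days alone (0.0910). miR-199b-5p was at 0.76 (SE 0.23, adjusted p = 0.0772) and passed without day 7 replicate 3 (0.00856), in edgeR (0.0416) and in DESeq2 (0.0166). miR-214-5p was at 0.34 (SE 0.17, adjusted p = 0.300) and miR-214-3p at -0.09 (SE 0.21, adjusted p = 0.899).

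On day 14, against day 7, 0 of 5 passed in limma, 0 had an unadjusted p under 0.05, and edgeR and DESeq2 called 0, where 4.41% of all miRNAs were called in either direction. Without day 14 replicate 3, miR-214-3p was lower on day 14 (-0.68, adjusted p = 0.00999). On day 28, against day 14, 2 of 5 were lower, where 7.66% of all were: miR-214-3p at -0.86 (adjusted p = 0.0132) and miR-199a-5p at -0.55 (adjusted p = 0.0226). Both calls were lost without day 14 replicate 3 (0.0704 for miR-214-3p and 0.119 for miR-199a-5p) and without day 28 replicate 2 (0.104 and 0.155). miR-199-3p (-0.43) passed without day 14 replicate 1 (adjusted p = 0.0490) or 2 (0.0136), and miR-214-5p (-0.50) without day 14 replicate 2 (0.0127) or day 28 replicate 1 (0.0419). In edgeR and DESeq2 4 of 5 passed.

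The late days (7, 14 and 28), against the early days (1, 2 and 3), were higher for 4 of 5 members, where 19.7% of all miRNAs were. miR-199-3p was at 1.16 (SE 0.09, adjusted p = 8.01e-10 in limma), miR-199a-5p at 0.98, miR-199b-5p at 0.97 and miR-214-5p at 0.66 (highest adjusted p of the 4 1.88e-05). miR-214-3p was at 0.30 (SE 0.12, adjusted p = 0.0603). It passed in edgeR (0.0429) and without day 1 replicate 1 (0.0404), day 14 replicate 1 (0.0298), day 14 replicate 2 (0.0200) or day 28 replicate 2 (0.0452).

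The miRNAs whose course was most like that of the members were named by Pearson's r over the 21 libraries with the mean log2(CPM + 1) of the 5 members, among the 287 others that averaged 10 CPM or more. They were miR-342-3p (r = 0.97) and miR-142-5p (r = 0.94), known from leukocytes, miR-181d-5p (0.94) and miR-181c-3p (0.92) of the miR-181 family, miR-146b-5p (0.91), of a family that restrains inflammatory signalling, and miR-204-5p (0.91), known from renal tubules. The libraries share their days, so these values describe likeness and carry no p. The top match, miR-342-3p, averaged 35.0 CPM on day 0, 83.4 CPM on day 3, 118 CPM on day 7 and 71.7 CPM on day 28. Among the members themselves r ran from 0.63, between miR-199b-5p and miR-214-3p, to 0.94, between miR-199a-5p and miR-214-5p.

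**Figure D5:**
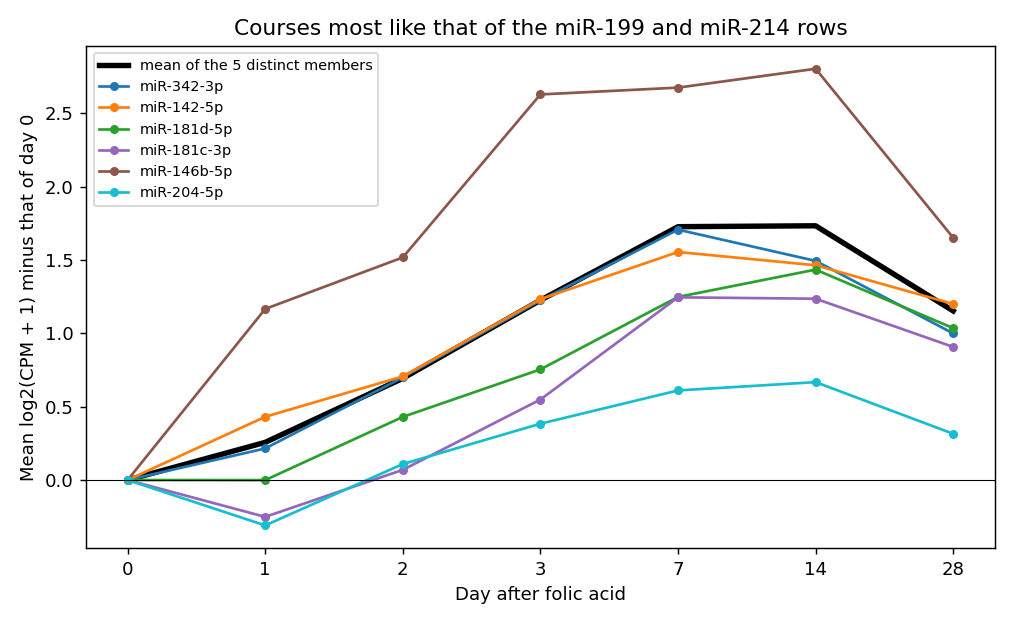
Mean log2(CPM + 1) minus that of day 0 (y axis) by day (x axis, equally spaced) for the mean of the 5 members (black) and the 6 miRNAs most correlated with it over 21 libraries. miR-342-3p has the highest r (0.97), while miR-146b-5p (r = 0.91) rises more and miR-204-5p (r = 0.91) less.

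Other miRNAs associated with fibrosis moved in both directions. Of 10 listed outside the members, 6 were higher and 3 lower on day 7 (median 0.97). Over all tested miRNAs, 226 of 431 were called that day, 56.6% of them higher. The largest changes of the list were those of miR-212-3p (2.64) and miR-132-3p (2.59), which share a precursor transcript. The lower were miR-29c-3p (-0.92), miR-192-5p (-0.87) and miR-29a-3p (-0.52). On day 28, 3 of the 10 passed, all higher (median 0.17), where 11.1% of all tested miRNAs were higher. The list was drawn up with results of this model known and is no independent evidence of direction.

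Markers of other cells are given for the whole list beside the members. On day 7, 29.7% of all tested miRNAs were called higher, and 56.6% of the 226 calls were rises. Of 4 arms of miR-143 and miR-145, known from smooth muscle and pericytes, 1 passed on day 7, miR-145-3p, which was lower (-0.43, adjusted p = 0.0275). The largest change of the list was that of miR-145-5p, at 0.54 (adjusted p = 0.0695), and the median of the 4 was 0.13. Their summed levels were 64772 to 79195 CPM on day 7, against 62423 to 80610 CPM on day 0. On day 14 miR-145-5p was higher (0.85, adjusted p = 0.00778). On day 28 the sums were 83383 to 86172 CPM, above every day 0 library, while the adjusted p of the 4 ran from 0.200 to 0.986; nearly all of the sum was miR-143-3p (84257 CPM, log2 fold change 0.22). Of 6 leukocyte miRNAs, 4 were higher on day 7, led by miR-223-3p (2.45) and miR-142-3p (2.08). In limma, miR-155-5p (0.28, adjusted p = 0.0580) and miR-150-5p (-0.20, adjusted p = 0.412) did not pass. Sums of this list were 2275 to 3330 CPM, against 935 to 1232 CPM on day 0, and most of the sum was miR-142-5p (1783 CPM on day 7). On day 28 the leukocyte sums were 2007 to 2156 CPM, above every day 0 library, as for the members. The 2 endothelial arms of miR-126 were lower on day 7, with sums of 10543 to 11118 CPM, against 13237 to 15456 CPM on day 0. Of 10 tubular and epithelial miRNAs listed, 9 were in the table and tested. On day 7, 2 were higher and 4 lower, with a median of 0.03. The higher were miR-204-5p and miR-200c-3p (both 0.61), and the lower were led by miR-215-5p (-0.96) and miR-192-5p (-0.87). Sums of this list were 124763 to 134554 CPM, against 199734 to 228803 CPM on day 0. Most of the sum was miR-192-5p and miR-30a-5p (66356 and 52204 CPM on day 7). The 3 erythroid miRNAs were higher on day 2, where 24.4% of all were. Their sums were 4687 to 9525 CPM, against 1272 to 3332 CPM on day 0. On day 7 their values were -0.95, -0.71 and -0.34 (lowest adjusted p = 0.118 in limma). miR-133a-3p was the single striated muscle miRNA of 4 that could be tested, and it was lower (-1.11). Of the listed markers, miR-206-3p was at 0 in 19 of 21 libraries and miR-1a-3p in 1, and the others in the table had reads in all. The part of these cells in the members' course was not tested. In whole kidney, more cells of a type and more RNA per cell cannot be told apart, nor can a higher share of these miRNAs and a lower share of tubular ones.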

How the data were processed

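The deposited table holds CPM of reads assigned to 1125 mature miRNAs, as the authors scaled them: each column sums to 1000000. The submitters' processing notes name CASAVA 1.8 and mm9. Which aligner, counter and miRNA annotation were used is not given in the sources used here. Whole reads were recovered for 100% of values (tolerance 0.05 of a read), and the depth was 2875675 to 7110546 reads per library. The limit of 1.04 CPM covers counting error only, while SDs and SEs reflect the spread between libraries. No libraries of a day agreed within sampling noise (lowest chi-square per degree of freedom 22.9).

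filterByExpr (minimum count 10) left 431 miRNAs. limma 3.58.1 (limma-trend, R 4.3.3) was run on log2(CPM + 1) after TMM scaling (edgeR 4.0.16; factors from 0.872 to 1.14), in 1 fit of 21 libraries with a mean per day and Benjamini-Hochberg adjustment over all miRNAs. Fold changes on this scale understate those of scarce miRNAs. Differences between members came from the same fit to values relative to miR-199-3p or miR-214-3p. Alternatives were other scalings, filters and pseudocounts, edgeR quasi-likelihood and DESeq2 1.42.0 on recovered reads, a replicate block and each library left out. The fit was tested on simulated data. Sequences and coordinates are RefSeq's on GRCm38.p6, and host genes GENCODE M21's.

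Named miRNAs are the members, those sharing a seed with a member, the 2 largest day 7 changes of each list, and the 6 most like in course. Others were named after their values were seen. These were miR-30a-5p as a tissue marker, miR-143-3p and miR-200c-3p as list members, and miR-1a-3p and miR-206-3p as markers with values of 0. Shares, ratios and the remaining rise without day 7 replicate 1 or day 14 replicate 3 were added after the data were seen. The members, lists and tests were chosen with earlier results of these data known.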

Additional observations from a re-analysis of the deposited data

How the results depend on the processing

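Against day 0, all 5 members stayed called on days 7, 14 and 28 and in the F test under each alternative and without each library. No value of a member that was called reversed its direction. Of 1684 fitted single-member values under alternatives, 1603 kept their direction and side of the threshold, 55 lost a call and 26 gained one.

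The counts that moved by over 1.5 times were those of steps between days, and of day 1, where the fit of the days compared gave 1 against 0. For day 3 against day 2 (3 members), library totals and no filter gave 0, and RLE scaling, upper-quartile scaling, DESeq2 and identical rows kept once gave 1. For day 28 against day 14 (2), library totals, upper-quartile scaling, edgeR and DESeq2 gave 4, and the fit of the days compared 1. That fit also gave 1 for day 7 against day 3 (2). With a library left out, the ranges were 0 to 2 for day 2 against day 1, 0 to 2 for day 3 against day 2, 1 to 3 for day 7 against day 3, 0 to 1 for day 14 against day 7 and 0 to 4 for day 28 against day 14. Members differing from miR-214-3p on day 7 ranged from 1 to 4. The cause of these changes was not tested. Library totals moved the median of all miRNAs by 0.18 on day 2 and 0.17 on day 3, and upper-quartile scaling by -0.18 on day 7, each less than the change of any member called that day. The share of rises among all calls moved with scaling: library totals gave 75.3% on day 2 (56.1% in the fit reported), 74.4% on day 3 (61.5%), 29.3% in the contrast of late with early days (52.8%) and 8.93% for day 28 against day 14 (37.7%), and upper-quartile scaling gave 45.1% on day 7 (56.6%) and 58.0% on day 28 (85.7%).

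Same-numbered libraries of different days had a median correlation of -0.02 in their deviations from the day means (63 pairs, 15 over 0.1). Different-numbered libraries had a median of 0.002 (126 pairs, 28 over 0.1). The same-numbered pairs thus did not stand out, but a median does not show whether some libraries are paired or share a batch. With the replicate block, 3 members were called on day 2 and 5 on day 3, 7, 14 and 28, miR-199a-5p lost its day 3 against day 2 call (adjusted p = 0.0538), and miR-199-3p gained one on day 28 against day 14 (0.0481). Depth limits the scarce miR-199b-5p and miR-214-5p most, whose libraries held as few as 39 and 37 reads.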
